A study of Homo sapiens with 4 samples.

Results

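The genes described here belong to the ubiquitin system, in SCC1 and FaDu cells given a siRNA against FOSL1 or a control siRNA. They were chosen by gene name alone: every row of the deposited tables whose name holds the words ubiquitin, ring finger, F-box or tripartite motif, leaving out symbols of the ZNF, ZFP, ZSCAN and ZKSCAN kinds and solute carriers. This gave 59 of the 2770 genes listed in either line, 38 of 1903 in the SCC1 table and 31 of 1545 in the FaDu table, with 10 genes in both. A gene in each table had been turned into a date, and its name shows it to be MARCH3 in SCC1 and MARCH4 in FaDu (now MARCHF3 and MARCHF4).

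Both are established human lines from squamous cell carcinomas of the head and neck, grown in DMEM with serum. The 4 groups were SCC1 with FOSL1 siRNA, SCC1 with control siRNA, FaDu with FOSL1 siRNA and FaDu with control siRNA, all taken at 48 h, with 1 library of total RNA in each. FOSL1 encodes FRA1, which pairs with JUN proteins in the AP-1 transcription factor. The sources used here do not give the number or sequences of the siRNAs, so effects of depleting FOSL1 and of the siRNA itself cannot be told apart. With 1 library per group there is no replicate check, and no test between conditions was made. "Higher" and "lower" compare the FOSL1 siRNA library with the control library of the same line.

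The tables hold only genes that passed the authors' own comparison, which were 13.8% of the 13796 genes they tested in SCC1 (5.6% higher and 8.19% lower) and 11.2% of 13796 in FaDu (4.76% higher and 6.44% lower). Every member therefore had to differ, by at least 1.5-fold, and a gene outside a table is not called unchanged. Listed genes also had an authors' p-value under 0.05, and the smallest fold listed was 1.88 in SCC1 and 1.88 in FaDu. Levels are CPM, the authors' reads scaled to an effective library size that lay between 10365774 and 13242163 reads. The range in parentheses after a fold is its 95% exact binomial interval, which treats reads as independent molecules and so covers counting error only. FOSL1 itself was at 3.99 CPM with FOSL1 siRNA, against 133 CPM with control siRNA, in SCC1, and at 36.9 CPM against 774 CPM in FaDu. Of 7 markers of squamous epithelium 1 was listed in each line, CDH1 in SCC1 at 192 CPM with FOSL1 siRNA against 101 CPM with control siRNA, and KRT17 in FaDu at 2609 against 794 CPM. Of 6 fibroblast, 3 leukocyte and 3 endothelial markers, 0 were listed in SCC1 and 1 in FaDu, the fibroblast collagen gene COL3A1, at 2.22 against 7.84 CPM. The identity of the lines could not be checked further on tables of filtered genes.

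Ubiquitin is a small protein that is attached to other proteins by a chain of enzymes. An E1 enzyme activates it, an E2 enzyme carries it, and an E3 ligase brings the E2 and the substrate together. Most E3 ligases hold a RING domain, which lets the E2 pass ubiquitin straight to the substrate, while HECT ligases take ubiquitin onto themselves first. F-box proteins are the interchangeable subunits that choose substrates for cullin-RING ligases, and tripartite motif proteins mostly carry a RING, B-boxes and a coiled coil. Deubiquitinating enzymes remove the tag. Tagged proteins may be sent to the proteasome, sorted to lysosomes or changed in their signalling, and among the substrates known from other work are growth factor receptors, cell cycle regulators and the AP-1 subunits JUN and JUNB.

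In SCC1, members were lower more often than higher. There were 12 higher members and 26 lower, so 31.6% were higher, beside 40.6% of all genes in the SCC1 table. In FaDu 16 members were higher and 15 lower, or 51.6% higher, beside 42.5% of all genes in the FaDu table. Among members reaching 5 CPM in at least 1 library, FaDu had 7 higher and 15 lower, and SCC1 had 9 higher and 23 lower. The near-even split of the FaDu members thus rested on genes of low level. The split of all genes listed was not counted at 5 CPM, so this shift is not read as a trait of the members. Moving each line's listed genes so that their median log2 fold was 0 left 12 members higher and 5 lower by 1.5-fold or more in SCC1, and 16 higher and 2 lower in FaDu. That median lies among lower genes because these outnumber the higher ones, and away from 0 because small differences are absent from the tables. Unlisted genes do not enter it, so it cannot decide between the splits.

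Most differences were of moderate size. The median fold of the higher members was 2.81 in SCC1 and 2.86 in FaDu, beside 2.55 and 2.76 for all higher genes listed. The median fold of the lower members was 2.45 in SCC1 and 2.32 in FaDu, beside 2.60 and 2.63 for all lower genes listed. In SCC1 there were 2 members of 4-fold or more, PELI2 and USP40, a size that 18.8% of all genes listed reached. In FaDu there were 4, MARCH4, TRIM15, TRIM31 and ZNRF2P1, a size that 23.9% of all genes listed reached, and each of these 4 had 3 or fewer reads in its lower library. The authors' deposited table gave an FDR under 0.05 to 6 of the 38 SCC1 members, or 15.8%, against 27.4% of all genes listed there. In FaDu the authors' deposited table gave it to 4 of the 31 members, or 12.9%, against 25.4% of all genes listed.

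**Figure D1:**
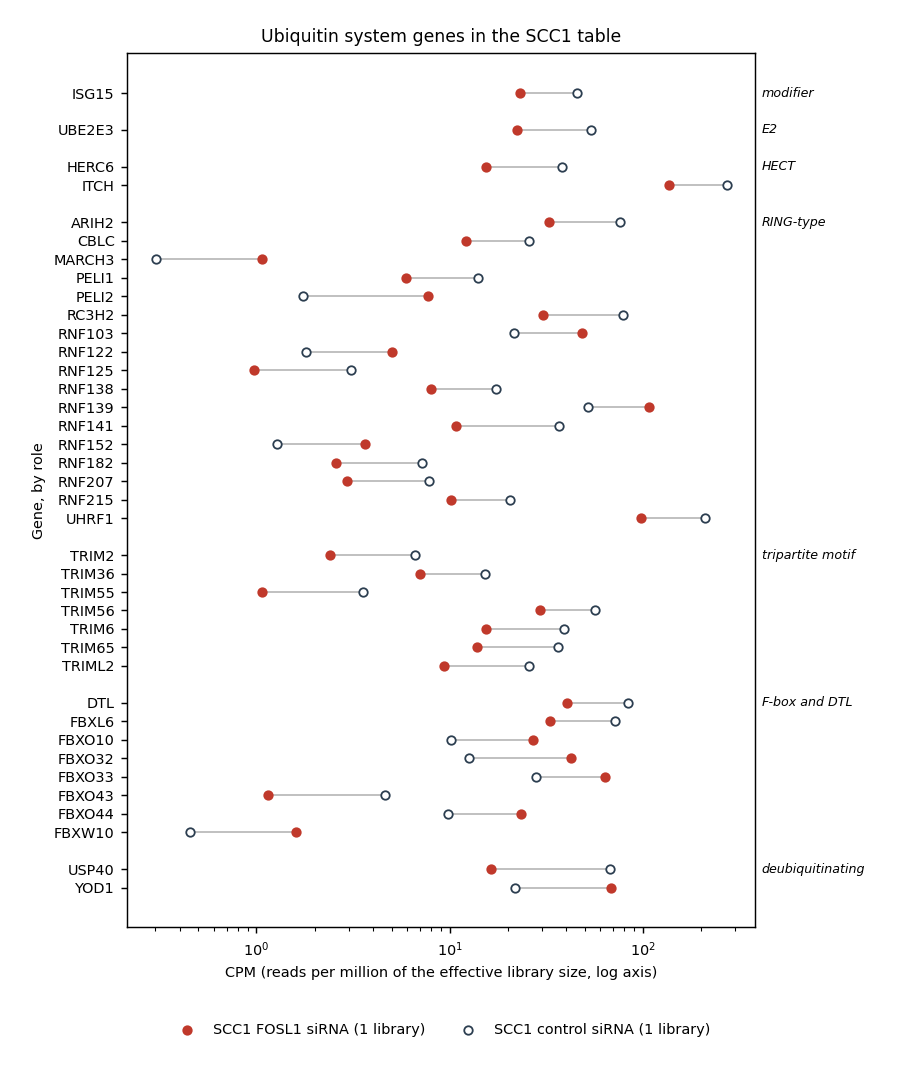
Level of each of the 38 ubiquitin system genes of the SCC1 table (rows, grouped by role) in CPM on a log axis, filled points for the FOSL1 siRNA library and open points for the control siRNA library, 1 library each. All 7 tripartite motif genes lie to the left of their control, while 5 of the 7 F-box genes lie to the right.

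**Figure D2:**
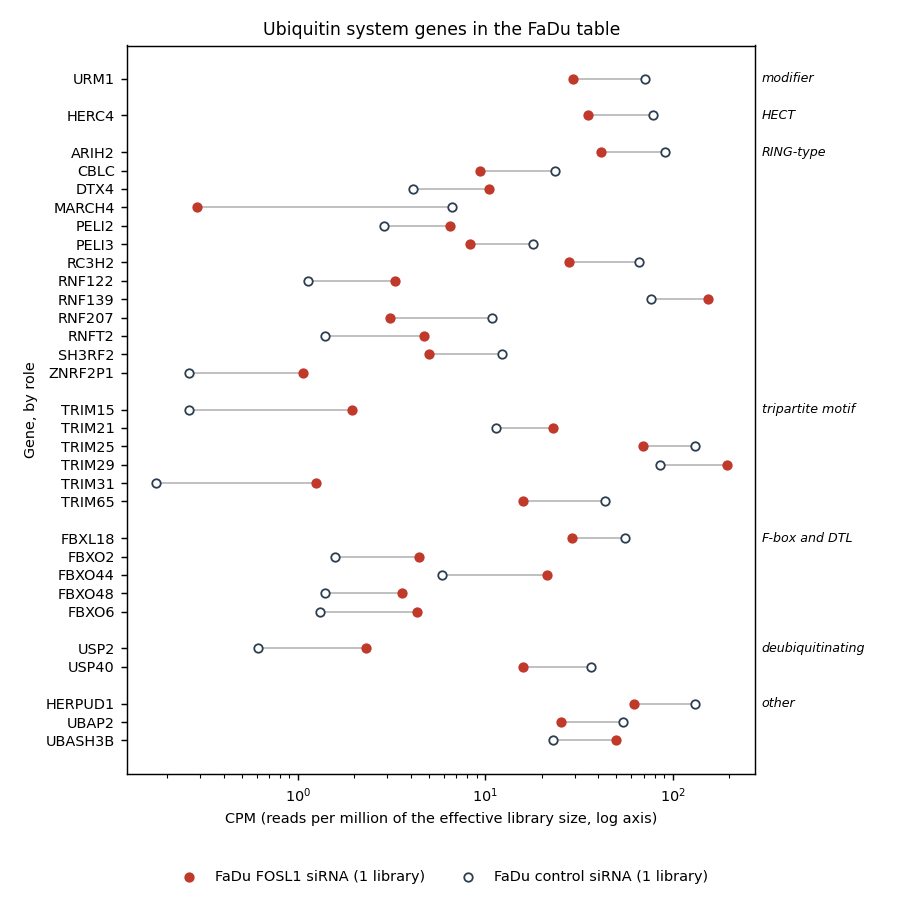
Level of each of the 31 ubiquitin system genes of the FaDu table (rows, grouped by role) in CPM on a log axis, filled points for the FOSL1 siRNA library and open points for the control siRNA library, 1 library each. MARCH4 has the widest gap to the left of its control, and 4 of the 5 F-box genes lie to the right.

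Modifiers, conjugating enzymes and HECT ligases gave few members, and all of them were lower. Most listed genes were lower too, since 40.6% of all genes listed in SCC1 and 42.5% in FaDu were higher. With so few members the shared direction is not read as a result about these roles. ISG15, an interferon-induced modifier that resembles ubiquitin, was at 23.05 CPM with FOSL1 siRNA against 45.7 CPM with control siRNA in SCC1 (1.98-fold lower, 1.71 to 2.30). URM1, a ubiquitin-related protein that also carries sulfur for tRNA modification, was at 29.4 CPM with FOSL1 siRNA against 71.4 CPM with control siRNA in FaDu (2.43-fold lower, 2.13 to 2.78). The E2 gene UBE2E3 was the only conjugating enzyme gene among the members, at 22.3 CPM with FOSL1 siRNA against 54.1 CPM with control siRNA in SCC1 (2.42-fold lower, 2.09 to 2.81). No gene of an E1 enzyme was among the members. The exons of ISG15 and URM1 overlap those of other annotated genes, a matter taken up with the shared loci.

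The HECT genes differed between the tables. In SCC1 the ligase gene ITCH, whose product is known to tag JUN and JUNB, was at 136 CPM with FOSL1 siRNA against 271 CPM with control siRNA (1.99-fold lower, 1.88 to 2.12). HERC6, whose mouse counterpart is the main ligase of ISG15, was at 15.3 CPM with FOSL1 siRNA against 38.1 CPM with control siRNA in SCC1 (2.48-fold lower, 2.08 to 2.97). HERC4, another HERC ligase gene, was at 35.3 CPM with FOSL1 siRNA against 78.8 CPM with control siRNA in FaDu (2.23-fold lower, 1.98 to 2.53). Scaling to the median fold adds the same amount to every log2 ratio of a line, so it turns the sign of the smallest falls. ISG15 and ITCH were turned in this way in SCC1, to log2 ratios of 0.065 and 0.058, which cannot decide their direction.

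RING-type ligases outside the tripartite motif family were the most numerous role, with 17 members in SCC1 (6 higher, 11 lower) and 13 in FaDu (6 higher, 7 lower). The higher ones in FaDu include the pseudogene ZNRF2P1. Higher members made up 35.3% in SCC1 and 46.2% in FaDu, beside 40.6% and 42.5% of all genes listed. Of the genes of this role, 7 were listed in both lines, and each had the same direction in both. Lower in both were ARIH2, CBLC, RC3H2 and RNF207, and higher in both were PELI2, RNF122 and RNF139.

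ARIH2 encodes a RING-between-RING ligase that works with cullin-RING complexes. It stood at 32.7 CPM with FOSL1 siRNA against 75.8 CPM with control siRNA in SCC1 (2.32-fold lower, 2.06 to 2.62) and at 41.3 CPM with FOSL1 siRNA against 90.7 CPM with control siRNA in FaDu (2.20-fold lower, 1.96 to 2.46). CBLC, the epithelial member of the Cbl family that downregulates activated EGFR, had 12.1 CPM with FOSL1 siRNA against 25.6 CPM with control siRNA in SCC1 (2.11-fold lower, 1.72 to 2.59). In FaDu it had 9.36 CPM with FOSL1 siRNA against 23.4 CPM with control siRNA (2.50-fold lower, 1.98 to 3.19). RC3H2 encodes Roquin-2, an RNA-binding protein that promotes decay of certain mRNAs and carries a RING. Its level was 30.5 CPM with FOSL1 siRNA against 78.99 CPM with control siRNA in SCC1 (2.59-fold lower, 2.29 to 2.93) and 28.1 CPM with FOSL1 siRNA against 66.4 CPM with control siRNA in FaDu (2.36-fold lower, 2.06 to 2.72). RNF207, studied mostly in heart muscle, was scarce, at 2.93 CPM with FOSL1 siRNA against 7.85 CPM with control siRNA in SCC1 (2.68-fold lower, 1.80 to 4.10) and 3.09 CPM with FOSL1 siRNA against 10.8 CPM with control siRNA in FaDu (3.50-fold lower, 2.36 to 5.34). All 4 genes thus had their lower value in the FOSL1 siRNA library of each line.

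PELI2 belongs to the pellino ligases, which act on IRAK kinases below Toll-like and interleukin-1 receptors. It was at 7.71 CPM with FOSL1 siRNA against 1.74 CPM with control siRNA in SCC1 (4.44-fold higher, 2.78 to 7.37) and at 6.46 CPM with FOSL1 siRNA against 2.88 CPM with control siRNA in FaDu (2.25-fold higher, 1.46 to 3.52). The other 2 pellino genes went the other way where listed. PELI1 had 5.94 CPM with FOSL1 siRNA against 14.05 CPM with control siRNA in SCC1 (2.36-fold lower, 1.78 to 3.18), and PELI3 had 8.30 CPM with FOSL1 siRNA against 18.04 CPM with control siRNA in FaDu (2.17-fold lower, 1.68 to 2.83). PELI1 was not listed in FaDu and PELI3 was not listed in SCC1, so each table holds 1 higher and 1 lower pellino gene. RNF139 encodes TRC8, a ligase of the endoplasmic reticulum membrane with a sterol-sensing domain. It was well covered, at 107 CPM with FOSL1 siRNA against 52.03 CPM with control siRNA in SCC1 (2.05-fold higher, 1.87 to 2.26) and 155 CPM with FOSL1 siRNA against 76.4 CPM with control siRNA in FaDu (2.03-fold higher, 1.87 to 2.21). RNF122 was low in all 4 libraries, at 5.05 CPM with FOSL1 siRNA against 1.81 CPM with control siRNA in SCC1 (2.79-fold higher, 1.70 to 4.70) and 3.28 CPM with FOSL1 siRNA against 1.13 CPM with control siRNA in FaDu (2.90-fold higher, 1.49 to 5.98).

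Another 10 RING-type genes were listed in SCC1 and not in FaDu, 3 higher and 7 lower. RNF141 had the largest fold among the lower genes of this role in SCC1, at 10.8 CPM with FOSL1 siRNA against 36.6 CPM with control siRNA (3.39-fold lower, 2.77 to 4.16), and its FDR in the authors' deposited table was 0.0147. UHRF1 recognises hemimethylated DNA and is needed to maintain DNA methylation after replication. It was at 97.9 CPM with FOSL1 siRNA against 209 CPM with control siRNA (2.13-fold lower, 1.99 to 2.29). RNF182 had 2.57 CPM with FOSL1 siRNA against 7.17 CPM with control siRNA (2.79-fold lower, 1.82 to 4.39). RNF125, a ligase known to act on the RNA sensor RIG-I, and RNF138 lie next to each other in the order of coding genes, share exons with another gene model on their strand and were both lower, RNF125 at 0.975 CPM with FOSL1 siRNA against 3.10 CPM with control siRNA (3.18-fold lower, 1.60 to 6.85) and RNF138 at 7.98 CPM with FOSL1 siRNA against 17.4 CPM with control siRNA (2.18-fold lower, 1.70 to 2.81). RNF215 had 10.1 CPM with FOSL1 siRNA against 20.5 CPM with control siRNA (2.03-fold lower, 1.62 to 2.54), a sign that the scaling turned, to a log2 ratio of 0.034. Of the higher genes, RNF103 was at 48.2 CPM with FOSL1 siRNA against 21.5 CPM with control siRNA (2.24-fold higher, 1.94 to 2.60). RNF152, whose product sits on lysosomes, had 3.63 CPM with FOSL1 siRNA against 1.28 CPM with control siRNA (2.83-fold higher, 1.57 to 5.31). MARCH3 rested on 12 reads with FOSL1 siRNA and 4 reads with control siRNA, a ratio of 3.52 (1.07 to 14.98).

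In FaDu 6 RING-type genes were listed that were not in the SCC1 table, 3 higher and 3 lower. MARCH4, of the membrane-bound MARCH ligases that remove surface proteins, had 3 reads with FOSL1 siRNA and 76 reads with control siRNA. That is 0.289 against 6.62 CPM, a ratio of 22.9, control over FOSL1 siRNA (7.54 to 113), so lower with FOSL1 siRNA. SH3RF2 was at 5.02 CPM with FOSL1 siRNA against 12.2 CPM with control siRNA (2.43-fold lower, 1.76 to 3.41). DTX4, a deltex ligase known from Notch signalling, was at 10.5 CPM with FOSL1 siRNA against 4.09 CPM with control siRNA (2.57-fold higher, 1.81 to 3.70), and RNFT2 at 4.73 CPM with FOSL1 siRNA against 1.39 CPM with control siRNA (3.39-fold higher, 1.90 to 6.39). ZNRF2P1 is a pseudogene of ZNRF2, so its reads may not be its own. It had 11 reads with FOSL1 siRNA and 3 reads with control siRNA, a ratio of 4.06 (1.07 to 22.7).

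The tripartite motif genes were split otherwise by direction in the 2 tables. In SCC1 all 7 listed were lower, while in FaDu 4 were higher and 2 lower. Of all genes listed, 40.6% in SCC1 and 42.5% in FaDu were higher. In FaDu 2 of the higher genes, TRIM15 and TRIM31, stayed under 5 CPM in both libraries. That leaves TRIM29 and TRIM21 higher, and TRIM65 and TRIM25 lower, above that level. For all genes listed the split above that level was not counted. TRIM65, the only member of this role in both, was lower in each. TRIM65 is known to tag the RNA sensor MDA5. It was at 13.8 CPM with FOSL1 siRNA against 36.2 CPM with control siRNA in SCC1 (2.62-fold lower, 2.18 to 3.16) and at 15.8 CPM with FOSL1 siRNA against 43.5 CPM with control siRNA in FaDu (2.75-fold lower, 2.30 to 3.30). Whether the other tripartite motif genes differ between the lines was not tested, since a gene missing from a table has no value there.

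Among the SCC1 genes of this role, TRIML2 had 9.31 CPM with FOSL1 siRNA against 25.8 CPM with control siRNA (2.77-fold lower, 2.22 to 3.49) and TRIM6 15.3 CPM with FOSL1 siRNA against 38.9 CPM with control siRNA (2.54-fold lower, 2.13 to 3.03). TRIM6 shares exons with the readthrough model TRIM6-TRIM34, which was in the FaDu table at 2.99 CPM with FOSL1 siRNA and 0 CPM with control siRNA. TRIM2, a ligase gene known from neurons, had 2.39 CPM with FOSL1 siRNA against 6.65 CPM with control siRNA (2.78-fold lower, 1.79 to 4.45). TRIM55 encodes the muscle RING protein MURF2 and was barely covered, at 1.06 CPM with FOSL1 siRNA against 3.55 CPM with control siRNA (3.34-fold lower, 1.74 to 6.91). TRIM36 had 7.003 CPM with FOSL1 siRNA against 15.2 CPM with control siRNA (2.17-fold lower, 1.66 to 2.85). TRIM56, a factor of antiviral defence, had 29.4 CPM with FOSL1 siRNA against 56.7 CPM with control siRNA (1.93-fold lower, 1.69 to 2.20), the smallest fold of any SCC1 member. Its sign was turned by scaling to the median fold, to a log2 ratio of 0.11.

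In FaDu the best covered of the higher genes was TRIM29, which is abundant in stratified epithelia and lacks a RING. It was at 194 CPM with FOSL1 siRNA against 85.2 CPM with control siRNA (2.28-fold higher, 2.11 to 2.47). TRIM21, a cytosolic receptor for antibodies, was at 22.9 CPM with FOSL1 siRNA against 11.4 CPM with control siRNA (2.003-fold higher, 1.61 to 2.50). TRIM15 had 20 reads with FOSL1 siRNA and 3 reads with control siRNA, a ratio of 7.38 (2.19 to 38.8). TRIM31 had 13 reads with FOSL1 siRNA and 2 reads with control siRNA, a ratio of 7.20 (1.63 to 65.7). These last 2 genes lie in the same stretch of chromosome 6, with 2 coding genes between them. The lower gene beside TRIM65 was TRIM25, the ligase that activates RIG-I, at 69.7 CPM with FOSL1 siRNA against 132 CPM with control siRNA (1.89-fold lower, 1.73 to 2.07). TRIM25 had the smallest fold of any FaDu member, and scaling turned its sign, to a log2 ratio of 0.096.

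Of the F-box genes 5 of 7 were higher in SCC1 and 4 of 5 in FaDu, where 40.6% and 42.5% of all genes listed were higher. In FaDu 3 of these 5 genes, FBXO2, FBXO6 and FBXO48, stayed under 5 CPM in both libraries. That leaves 1 higher (FBXO44) and 1 lower (FBXL18) above that level, where the split of all genes listed was not counted. FBXO44 was the F-box gene listed in both. It was at 23.4 CPM with FOSL1 siRNA against 9.74 CPM with control siRNA in SCC1 (2.40-fold higher, 1.94 to 2.99) and at 21.4 CPM with FOSL1 siRNA against 5.84 CPM with control siRNA in FaDu (3.67-fold higher, 2.78 to 4.90). Its 2 neighbours on chromosome 1, FBXO2 and FBXO6, were listed in FaDu and also higher there. FBXO2 and FBXO6 encode F-box proteins that bind N-glycans and help to clear misfolded glycoproteins. FBXO2 had 4.44 CPM with FOSL1 siRNA against 1.57 CPM with control siRNA (2.83-fold higher, 1.61 to 5.19), and FBXO6 had 4.34 CPM with FOSL1 siRNA against 1.31 CPM with control siRNA (3.32-fold higher, 1.82 to 6.42). All 3 genes of the cluster thus had their higher value in the FaDu library with FOSL1 siRNA. In SCC1 FBXO44 alone of the 3 was listed.

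FBXO44 and FBXO2 start beside each other on opposite strands, and their sequences are shown because this bears on how far their reads can be told apart. In RefSeq on GRCh38.p14 the window around the FBXO44 start is chr1:11654157-11654456 on the plus strand, and that around the FBXO2 start is chr1:11654380-11654679 on the minus strand. Each holds 250 bases before and 50 bases after the start, written 5′ to 3′ on its own strand, and the capitals mark the 77 bases that the windows share, which are reverse complements.
FBXO44: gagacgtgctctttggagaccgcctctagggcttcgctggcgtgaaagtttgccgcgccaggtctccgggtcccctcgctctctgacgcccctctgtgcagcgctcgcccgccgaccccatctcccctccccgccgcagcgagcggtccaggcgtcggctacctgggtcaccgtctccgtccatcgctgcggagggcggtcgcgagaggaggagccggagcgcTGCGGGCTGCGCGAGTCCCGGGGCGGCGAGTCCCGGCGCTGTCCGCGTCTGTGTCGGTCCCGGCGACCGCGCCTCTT
FBXO2: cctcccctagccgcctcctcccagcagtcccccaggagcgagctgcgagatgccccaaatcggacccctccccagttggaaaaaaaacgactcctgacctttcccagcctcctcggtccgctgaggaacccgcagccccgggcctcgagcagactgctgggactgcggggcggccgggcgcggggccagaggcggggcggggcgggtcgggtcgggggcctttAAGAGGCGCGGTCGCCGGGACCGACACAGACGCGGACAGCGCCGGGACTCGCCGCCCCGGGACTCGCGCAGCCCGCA
The genes run into each other from these starts and overlap by 23 bases before they part. Reads from their common exonic stretch cannot be assigned without strand information, and the sources used here do not state the strand setting. FBXO6 has no exon overlapping another gene in the annotation used.

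The other F-box members of SCC1 that were higher include FBXO32, which encodes atrogin-1, a ligase subunit known for its rise in muscle wasting. It was at 42.2 CPM with FOSL1 siRNA against 12.5 CPM with control siRNA (3.37-fold higher, 2.82 to 4.04), with an FDR of 0.0142 in the authors' deposited table. FBXO10, known to act on the survival protein BCL2, was at 26.9 CPM with FOSL1 siRNA against 10.2 CPM with control siRNA (2.64-fold higher, 2.15 to 3.26). FBXO33 had 63.6 CPM with FOSL1 siRNA against 27.9 CPM with control siRNA (2.28-fold higher, 2.01 to 2.59), and FBXW10 had 1.60 CPM with FOSL1 siRNA against 0.453 CPM with control siRNA (3.52-fold higher, 1.34 to 10.8). Lower in SCC1 were FBXO43, at 1.15 CPM with FOSL1 siRNA against 4.61 CPM with control siRNA (3.997-fold lower, 2.17 to 7.93), and FBXL6, at 33.2 CPM with FOSL1 siRNA against 71.9 CPM with control siRNA (2.17-fold lower, 1.92 to 2.45). FBXO43 encodes EMI2, an inhibitor of the anaphase-promoting complex in meiosis. DTL, the cullin 4 substrate receptor that clears CDT1 and p21 in S phase, was also lower, at 40.2 CPM with FOSL1 siRNA against 83.7 CPM with control siRNA (2.09-fold lower, 1.87 to 2.33). In FaDu the remaining F-box members were FBXO48, at 3.57 CPM with FOSL1 siRNA against 1.39 CPM with control siRNA (2.56-fold higher, 1.39 to 4.93), and FBXL18, at 28.8 CPM with FOSL1 siRNA against 55.7 CPM with control siRNA (1.93-fold lower, 1.68 to 2.22). The sign of FBXL18 was turned by scaling, to a log2 ratio of 0.066.

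Deubiquitinating enzymes gave 2 members in each table. USP40 was lower in both, at 16.4 CPM with FOSL1 siRNA against 67.6 CPM with control siRNA in SCC1 (4.12-fold lower, 3.51 to 4.85) and 15.8 CPM with FOSL1 siRNA against 36.7 CPM with control siRNA in FaDu (2.32-fold lower, 1.93 to 2.79). In the authors' deposited table its FDR was 0.00255 in SCC1 and 0.181 in FaDu. YOD1, an OTU-type enzyme that works with the p97 ATPase in protein quality control, was higher in SCC1, at 67.99 CPM with FOSL1 siRNA against 21.7 CPM with control siRNA (3.14-fold higher, 2.74 to 3.61). USP2, known to stabilise cyclin D1 and MDM2, was higher in FaDu, at 2.32 CPM with FOSL1 siRNA against 0.610 CPM with control siRNA (3.80-fold higher, 1.59 to 10.4), with 7 reads in the control library.

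The remaining FaDu members carry ubiquitin in their names without being ligases or proteases. HERPUD1, a membrane protein of endoplasmic reticulum quality control, was at 61.9 CPM with FOSL1 siRNA against 132 CPM with control siRNA (2.13-fold lower, 1.94 to 2.34). UBAP2 was at 25.4 CPM with FOSL1 siRNA against 54.4 CPM with control siRNA (2.14-fold lower, 1.85 to 2.48). UBASH3B, a phosphatase that binds Cbl proteins and acts on tyrosine kinases such as EGFR, was at 49.7 CPM with FOSL1 siRNA against 22.9 CPM with control siRNA (2.17-fold higher, 1.87 to 2.53).

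The 10 members listed in both lines are 26.3% of the SCC1 members and 32.3% of the FaDu members, beside 35.6% and 43.9% for all genes listed. All 10 had the same direction in both lines, 4 higher and 6 lower, beside 96.6% of the 678 genes listed in both. The intervals of the 2 lines overlapped for 9 of the 10 genes. USP40 was the exception, with 3.51 to 4.85 in SCC1 and 1.93 to 2.79 in FaDu, and since these intervals leave out variation between cultures they do not show that the lines differ. None of the 10 had an FDR under 0.05 in both of the authors' deposited tables. Of the remaining members, 28 were listed in SCC1 only and 21 in FaDu only.

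**Figure D3:**
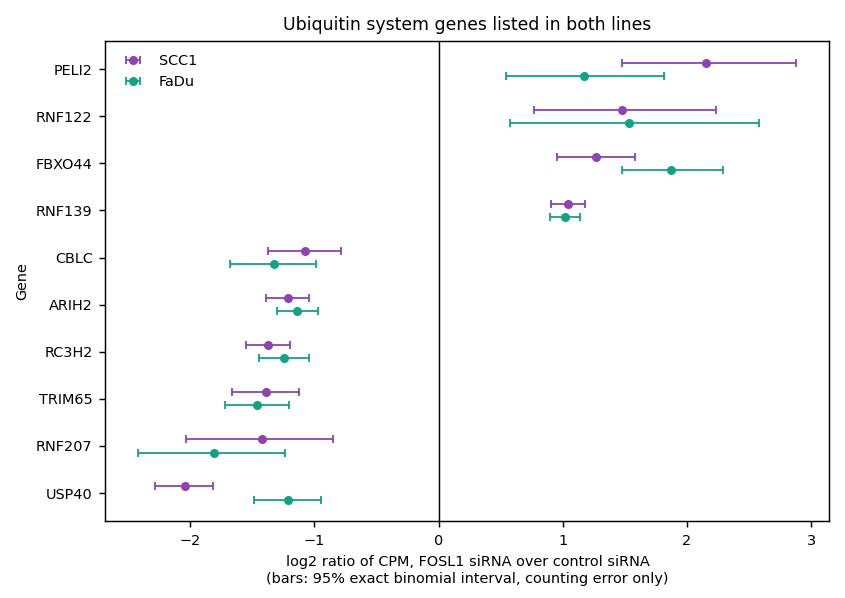
Log2 ratio of CPM, FOSL1 siRNA over control siRNA, for the 10 ubiquitin system genes listed in both lines (rows), with SCC1 and FaDu in separate colours and bars for the 95% exact binomial interval. All 4 higher and 6 lower genes lie on the same side of 0 in both lines, and the bars of USP40 alone do not overlap.

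Some members share their locus with other genes. In GENCODE release 29, 19 of the 59 members have an exon that overlaps an exon of another gene on either strand, among them ARIH2, FBXO44 and RNF207 of those listed in both lines. Without these, SCC1 had 9 higher and 19 lower members, and FaDu had 11 higher and 8 lower. Neither the overlap nor this split was counted for all genes listed, so they are not read as traits of the members. The overlapping genes were not tested as a source of the reads.

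AP-1 is known to bind TGA and TCA with 1 base between them. The letters TGANTCA, which read the same on both strands, were looked for in the RefSeq window of 300 bases around the start of each member that has one. The share was 7.14% of 28 windows in SCC1, or 2 genes, and 0 of 24 windows in FaDu. Among all 35116 windows of the table it was 7.71%, and among the listed genes 6.74% in SCC1 and 6.33% in FaDu. The genes with a match were YOD1, which was higher in SCC1, and TRIML2, which was lower there. Their windows are shown with the match in capitals, at chr1:207051159-207051458 for YOD1 and chr4:188109554-188109853 for TRIML2, both on the minus strand of GRCh38.p14.
YOD1: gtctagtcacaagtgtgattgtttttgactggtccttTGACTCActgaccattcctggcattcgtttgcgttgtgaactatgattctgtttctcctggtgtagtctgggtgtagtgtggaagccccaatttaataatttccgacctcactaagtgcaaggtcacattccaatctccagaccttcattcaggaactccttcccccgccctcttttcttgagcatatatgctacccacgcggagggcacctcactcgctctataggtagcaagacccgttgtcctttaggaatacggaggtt
TRIML2: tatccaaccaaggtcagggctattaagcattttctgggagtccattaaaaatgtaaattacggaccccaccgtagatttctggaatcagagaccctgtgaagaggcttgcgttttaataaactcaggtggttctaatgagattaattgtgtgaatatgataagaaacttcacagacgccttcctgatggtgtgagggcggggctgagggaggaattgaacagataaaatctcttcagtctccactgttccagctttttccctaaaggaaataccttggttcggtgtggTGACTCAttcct
The match begins 213 bases before the start in YOD1 and 38 bases after it in TRIML2. A match of letters is not a bound site, and no match says only that these letters are not in the window.

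Genes of the ubiquitin pathway whose names lack the words of the rule were taken from 10 lists of 269 genes in all. In SCC1 28 of them, or 10.4%, were listed, 10 higher and 18 lower, beside 13.8% of the genes the authors tested. In FaDu 15, or 5.58%, were listed, 3 higher and 12 lower, beside 11.2%. Of all 20037 annotated coding genes, 8.55% were listed in SCC1 and 6.94% in FaDu, so the SCC1 share of the lists lies between the 2 backgrounds and the FaDu share below both. How many of the 269 were among the genes tested is not known, and the shares are not read as a result about the pathway. Listed in both lines were 8 genes, 7 lower and 1 higher, with none opposite. Of all 678 genes listed in both, 96.6% had the same direction.

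Few proteasome genes were in the tables, a smaller share than either background just given in both lines. On lists this short the shares are not read as a result. Of 17 genes of the 20S core none was listed in either line. Of 31 genes of the 19S regulator, the activators and the assembly chaperones 2 were lower in SCC1 (6.45%) and none was listed in FaDu. PSME4, an activator, was at 56.2 CPM with FOSL1 siRNA against 149 CPM with control siRNA in SCC1 (2.66-fold lower, 2.43 to 2.91), and the assembly chaperone PSMG1 at 33.2 CPM with FOSL1 siRNA against 62.8 CPM with control siRNA (1.90-fold lower, 1.68 to 2.15). None of 19 genes of p97 and its cofactors was listed. Of 16 genes of the anaphase-promoting complex, the ligase of mitotic exit, 4 were lower in SCC1 (25%) and 2 in FaDu (12.5%), with none higher, beside 8.19% and 6.44% lower among the genes tested. ANAPC13 was at 8.95 CPM with FOSL1 siRNA against 32.8 CPM with control siRNA in SCC1 (3.66-fold lower, 2.94 to 4.59) and 16.3 CPM with FOSL1 siRNA against 55.2 CPM with control siRNA in FaDu (3.39-fold lower, 2.85 to 4.04). ANAPC5 was at 47.2 CPM with FOSL1 siRNA against 131 CPM with control siRNA in SCC1 (2.77-fold lower, 2.51 to 3.06) and 75.4 CPM with FOSL1 siRNA against 165 CPM with control siRNA in FaDu (2.19-fold lower, 2.02 to 2.39). The other SCC1 genes were ANAPC4 (2.61-fold lower, 2.21 to 3.09) and ANAPC1 (2.03-fold lower, 1.88 to 2.20).

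Cullins themselves were not listed. Of 20 genes of the cullin-RING core 1 was lower in SCC1 (5%), beside 8.19% of the genes tested, and none was listed in FaDu. It was the damage sensor DDB2, at 11.2 CPM with FOSL1 siRNA against 24.9 CPM with control siRNA (2.23-fold lower, 1.81 to 2.76). Of 18 genes of the NEDD8 pathway and the COP9 signalosome, which switch cullins on and off, 2 were higher and 2 lower in SCC1, and 1 was higher and 2 lower in FaDu. Thus 22.2% and 16.7% were listed, beside 13.8% and 11.2% of the genes tested. On so few genes these shares are not read as a result. NAE1, a subunit of the NEDD8-activating enzyme, was at 55.7 CPM with FOSL1 siRNA against 125 CPM with control siRNA in SCC1 (2.25-fold lower, 2.05 to 2.47) and 61.5 CPM with FOSL1 siRNA against 125 CPM with control siRNA in FaDu (2.04-fold lower, 1.85 to 2.24). The signalosome gene COPS6 was at 39.2 CPM with FOSL1 siRNA against 78.3 CPM with control siRNA in SCC1 (1.999-fold lower, 1.79 to 2.24) and 58.5 CPM with FOSL1 siRNA against 135 CPM with control siRNA in FaDu (2.31-fold lower, 2.10 to 2.54). DCUN1D3, a scaffold of cullin neddylation, was at 15.1 CPM with FOSL1 siRNA against 6.27 CPM with control siRNA in SCC1 (2.40-fold higher, 1.84 to 3.16) and 35.1 CPM with FOSL1 siRNA against 17.7 CPM with control siRNA in FaDu (1.99-fold higher, 1.67 to 2.37). COPS7B was listed in SCC1 alone, at 65.8 CPM with FOSL1 siRNA against 33.5 CPM with control siRNA (1.96-fold higher, 1.74 to 2.21).

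Of 75 E3 ligase genes named otherwise, 1 was higher and 3 lower in SCC1, and 1 was higher and 4 lower in FaDu. Thus 5.33% and 6.67% were listed, beside 13.8% and 11.2% of the genes tested. SOCS2, which limits cytokine receptor signalling, was lower in both lines, at 5.85 CPM with FOSL1 siRNA against 20.8 CPM with control siRNA in SCC1 (3.55-fold lower, 2.70 to 4.72) and 22.9 CPM with FOSL1 siRNA against 61.3 CPM with control siRNA in FaDu (2.68-fold lower, 2.31 to 3.12). SOCS3, a related feedback inhibitor, was at 32.2 CPM with FOSL1 siRNA against 10.3 CPM with control siRNA in SCC1 (3.13-fold higher, 2.57 to 3.84), and BIRC3, a ligase of TNF receptor complexes, at 11.2 CPM with FOSL1 siRNA against 31.9 CPM with control siRNA (2.85-fold lower, 2.33 to 3.51). Of 22 deubiquitinase genes named otherwise, 3 were lower in SCC1 (13.6%) and 2 in FaDu (9.09%), with none higher. Among the genes tested 8.19% and 6.44% were lower. On so few genes these shares are not read as a result. STAMBP, which acts on receptors at endosomes, was at 26.4 CPM with FOSL1 siRNA against 70.004 CPM with control siRNA in SCC1 (2.65-fold lower, 2.32 to 3.03) and 32.3 CPM with FOSL1 siRNA against 86.8 CPM with control siRNA in FaDu (2.69-fold lower, 2.37 to 3.05). OTUD6B was at 21.4 CPM with FOSL1 siRNA against 54.4 CPM with control siRNA in SCC1 (2.55-fold lower, 2.20 to 2.96), and STAMBPL1 at 9.13 CPM with FOSL1 siRNA against 20.5 CPM with control siRNA (2.24-fold lower, 1.78 to 2.84). TNFAIP3, the A20 brake on NF-kappaB signalling, was at 97.4 CPM with FOSL1 siRNA against 231 CPM with control siRNA in FaDu (2.37-fold lower, 2.20 to 2.55).

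Of 33 BTB-Kelch and related adaptors of cullin 3, 5 were higher and 3 lower in SCC1, and 1 was higher and 2 lower in FaDu. Thus 24.2% and 9.09% were listed, beside 13.8% and 11.2% of the genes tested. No gene was in both tables, beside 35.6% of all genes listed in SCC1 and 43.9% of those in FaDu. On so few genes neither the shares nor the lack of overlap is read as a result. In SCC1 KLHL25 was at 18.3 CPM with FOSL1 siRNA against 6.87 CPM with control siRNA (2.66-fold higher, 2.07 to 3.44). KLHL12 was at 25.3 CPM with FOSL1 siRNA against 57.7 CPM with control siRNA (2.28-fold lower, 1.99 to 2.63), KLHL23 at 20.1 CPM with FOSL1 siRNA against 43.2 CPM with control siRNA (2.15-fold lower, 1.84 to 2.51), and KLHL15 at 11.6 CPM with FOSL1 siRNA against 5.14 CPM with control siRNA (2.26-fold higher, 1.67 to 3.08). Of 18 SUMO pathway genes 2 were higher in SCC1 (11.1%), beside 5.6% of the genes tested, and none was listed in FaDu. These 2 genes are too few for a result about the pathway. Among the 2 was PIAS4, at 83.9 CPM with FOSL1 siRNA against 40.9 CPM with control siRNA (2.05-fold higher, 1.84 to 2.28).

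**Figure D4:**
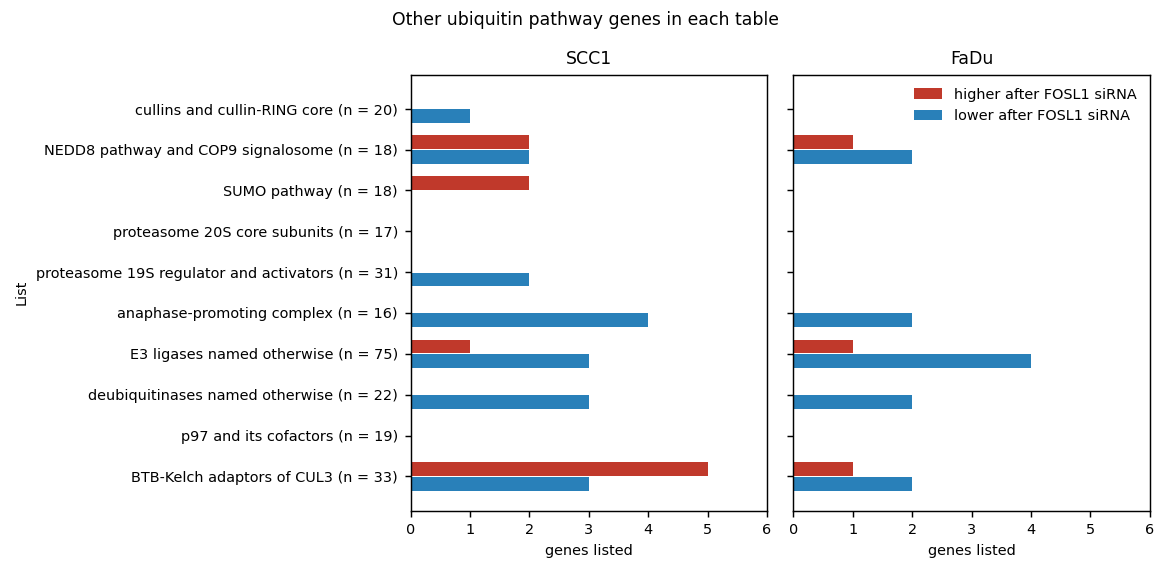
Number of genes listed as higher or lower after FOSL1 siRNA for each of the 10 pathway lists (rows, n is the list's size without the members, and the row of the 19S regulator and activators includes assembly chaperones), for SCC1 on the left and FaDu on the right. Both proteasome core and p97 rows are empty in both lines, and the anaphase-promoting complex shows 4 lower genes in SCC1 and 2 in FaDu.

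Set beside the annotated gene families of RefSeq, which include genes that these cells may not express, the listed share varied. For TRIM, of 75 TRIM genes 6 (8%) were listed in SCC1 and 6 (8%) in FaDu, and for RNF, of 84 RNF genes 10 (11.9%) were listed in SCC1 and 3 (3.57%) in FaDu. For the F-box family, of 62 F-box genes 7 (11.3%) were listed in SCC1 and 5 (8.06%) in FaDu. For USP, of 51 USP genes 1 (1.96%) were listed in SCC1 and 2 (3.92%) in FaDu, and for UBE2, of 36 UBE2 genes 1 (2.78%) were listed in SCC1 and 0 in FaDu. Smaller families had higher shares on very few genes: 2 of 3 pellino genes (66.7%), 1 of 6 HERC genes (16.7%) and 1 of 11 MARCH genes (9.09%) were listed in each line. The share of all annotated coding genes was the 8.55% in SCC1 and 6.94% in FaDu given above. These shares describe the tables, and no family is called different from the rest by them.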

How the data were processed

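RNA was measured in 1 library for each of 4 groups, made with a KAPA kit per the labels' protocols. In SCC1 every ratio rests on a control column headed with a number 2, whose meaning is not given in the sources used here. The submitters' processing notes name TopHat, Cufflinks and hg18. The sources used here do not state the read counter, normalization or strand setting. The deposited tables hold CPM per library, whose name in that unit comes from the values, and per the file headers a fold change, here a signed score, a p-value and an FDR by the authors. Each CPM column that the authors deposited rises in steps of 1 read: 100% of values came out as whole reads (tolerance 0.01 read), and these reads were used. The FDR and p-values show 13796 genes tested per line, and up to 100 genes in SCC1 and 94 in FaDu past the authors' threshold are not analysed here.

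Ratios of CPM were taken without a pseudocount, and intervals are exact binomial at 95%. A likelihood ratio test of edgeR 4.0.16 (R 4.3.3) on the recovered reads compares 2 libraries, not the conditions. At an assumed dispersion of 0.05 it called all 1903 SCC1 and all 1545 FaDu genes, and at 0.16 it called 483 and 461. Recovery, intervals and this test were tested on simulated data. Python 3.11.15 was used with SciPy 1.17.1, pandas 2.3.3, matplotlib 3.10.9 and numpy 2.4.6.

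The members, lists, roles and rules were chosen with earlier results of these data known. The rule for named genes takes members listed in both lines, the 12 largest rises and 12 largest falls per line on log2(CPM + 1) among genes reaching 5 CPM, members at 3 or fewer reads, FOSL1, and up to 4 genes per list, some of which are not reported here. The other members are described too, which was decided after their values were seen. All 59 members matched a RefSeq symbol, and 45 had a promoter window (RefSeq, GRCh38.p14). By the rule windows would be shown for TRIM65, RC3H2, FBXO44 and USP40. Of these FBXO44 is shown, and FBXO2, YOD1 and TRIML2 were added after seeing the data. The files' build is another, so the RefSeq windows are the only positions given.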

Additional observations from a re-analysis of the deposited data

How the results depend on the processing

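With 1 library per group no replicate could be left out, and no conclusion reaches beyond these 4 libraries. No paired analysis was possible because each group has 1 library. A fold of 2 and a pseudocount of 1 CPM kept all 5 counts within 1.5 times. So did a pseudocount of 0.1 CPM and leaving out rows with 3 or fewer reads, the last chosen after seeing the data. Neither of these could do otherwise, so they say nothing about stability. Such rows were held by 4 FaDu members and 0 SCC1 members. With no member fold under 1.89 and each member at 1 CPM or more, 0.1 CPM brings none under 1.5-fold. A level of 1 CPM and summing rows of a symbol could not change a count. Every member reached 1 CPM in a library and had 1 row per line, so these 2 settings say nothing about stability. The count test at dispersion 0.05, also chosen after seeing the data, called every listed gene, so it could not change a count and says nothing about stability. These counts are the members higher in SCC1 (12), lower in SCC1 (26), higher in FaDu (16), lower in FaDu (15) and in the same direction in both (10). In that order, an authors' p-value under 0.01 gave 6, 14, 7, 6 and 4, and an FDR under 0.05 gave 3, 3, 2, 2 and 0. The count test at dispersion 0.16, chosen after seeing the data, gave 2, 3, 3, 2 and 0. These 3 settings only remove members, by their construction. Names with ubiquitin alone gave 3, 12, 4, 9 and 4, and adding the pathway lists gave 22, 44, 19, 27 and 18. Setting the listed genes' median log2 ratio, which was -1.05 in SCC1 and -1.01 in FaDu, to 0 moved every ratio of a line up equally. It left 5 lower in SCC1, 2 lower in FaDu and 4 shared. It turned the sign of 6 members, those with the smallest falls in their line. Their log2 ratios became 0.065 for ISG15, 0.058 for ITCH, 0.034 for RNF215, 0.11 for TRIM56, 0.096 for TRIM25 and 0.066 for FBXL18. A level of 5 CPM left 7 higher in FaDu, since low genes are removed. Leaving out members with exon overlap, chosen after seeing the data, left 8 lower in FaDu. Of the 69 single ratios, a pseudocount of 1 CPM moved 1 beyond its interval and reversed none. Setting the median log2 ratio to 0 moved 55 beyond their intervals without a change of sign, reversed 6 and left 8 within. The size of that shift comes from listed genes alone, so these numbers do not measure stability.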
